A study of Mus musculus with 4 samples.

Results

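The transcripts of 32 genes that serve glucose uptake, glycolysis, lactate handling and the response to low oxygen were followed in mouse Th17 cells that had received a CRISPR guide against Adarb1. The genes were taken by name from the table of 55450 genes: 2 glucose transporters, 17 genes of glycolytic steps, 5 genes of lactate and pyruvate handling and 8 genes of the oxygen response. A total of 33 rows carried these symbols, because GENCODE mouse release M21 gives the symbol Aldoa to 2 neighbouring gene models, and the model with the larger count stands for Aldoa below. Th17 cells are the class of CD4 helper T cells that makes IL-17, and Adarb1 encodes ADAR2, an enzyme that converts adenosine to inosine in double-stranded RNA. Both groups were Th17 cells with a Cas9 transgene, grown from naive CD4 T cells of wild-type mice aged 8 to 12 weeks. The sgAdarb1 group (2 cultures) was transduced with a retroviral PSIN vector carrying the guide, and the control group (2 cultures) with the empty PSIN vector, which holds no guide. All cultures were activated with 0.25 µg/mL anti-CD3ε and 1 µg/mL anti-CD28 for 24 h, transduced, and then polarized for 72 h; the medium held TGF-β at 0.3 ng/mL and IL-6 at 20 ng/mL. Each of 2 donor mice supplied 1 culture of either group. Groups are named from the sample titles, while the treatment tag goes against the title for 2 of the 4 samples.

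Glycolysis splits glucose into pyruvate in the cytosol, and lactate dehydrogenase turns pyruvate into lactate, which restores the NAD+ that the pathway consumes. Activated T cells raise this flux strongly even when oxygen is present, and Th17 cells are known for relying on it. Many of the enzymes are also targets of the hypoxia-inducible factor HIF, whose oxygen-labile subunit is encoded by Hif1a. The prolyl hydroxylases of the Egln family mark that subunit for degradation when oxygen is available, and HIF in turn raises the genes of glucose transporters, glycolytic enzymes, lactate export and its own hydroxylases.

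None of the 32 genes passed the authors' DESeq2 test between sgAdarb1 and empty vector cultures. The count past an adjusted p of 0.05 was 0 of 32, where 0% of the 29383 genes with a fold change passed, and the count at an unadjusted p below 0.05 was also 0 of 32, against 0.208% of those genes, by the authors' deposited table. That 0.208% is below the share of 0.05 that the test would give if no gene differed. It also varied with expression, and the lowest mean normalized count of the 32 was 96.0. An unadjusted p below 0.05 (DESeq2) was held by 59 of 10680 genes at a mean of at least 50. The counts were 48 of 3664 at 1000 or above and 22 of 559 at 5000 or above. The Wald scores (fold change over its standard error) had a standard deviation of 0.51 over the 29383 genes. It was 0.73 at a mean normalized count of at least 1000 and 0.93 at 5000 or above, below that of a standard normal score. The p-values thus ran high and the 95% intervals wide, least so at the highest means. A count of 0 of 32 does not show that the 32 genes were unchanged. Of the 32 log2 fold changes, 26 were positive and 6 negative, all between -0.07 and 0.25, with a median of 0.04 by the authors' deposited table. Over the 3664 genes that had a mean normalized count of at least 1000, 49.2% were positive and the median was -0.00 by the authors' deposited table. The background varied with expression: at a mean of 5000 or above, 10 of 11 of these genes were positive (median 0.04) beside 56.2% of 559 genes (median 0.01), from 1000 to below 5000 the values were 8 of 10 (median 0.02) beside 48.0% (median -0.00), and from 50 to below 1000 they were 8 of 11 (median 0.06) beside 53.3% (median 0.01), by the authors' deposited table. When a fitted dependence of fold change on GC content and exon length was removed, 22 of the 32 were positive and the median was 0.01. Every one of the 95% intervals spanned 0. A positive value here means higher in sgAdarb1, the order of the design text, because the numerator is not named in the table. The table also does not show which libraries entered which group.

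**Figure D1:**
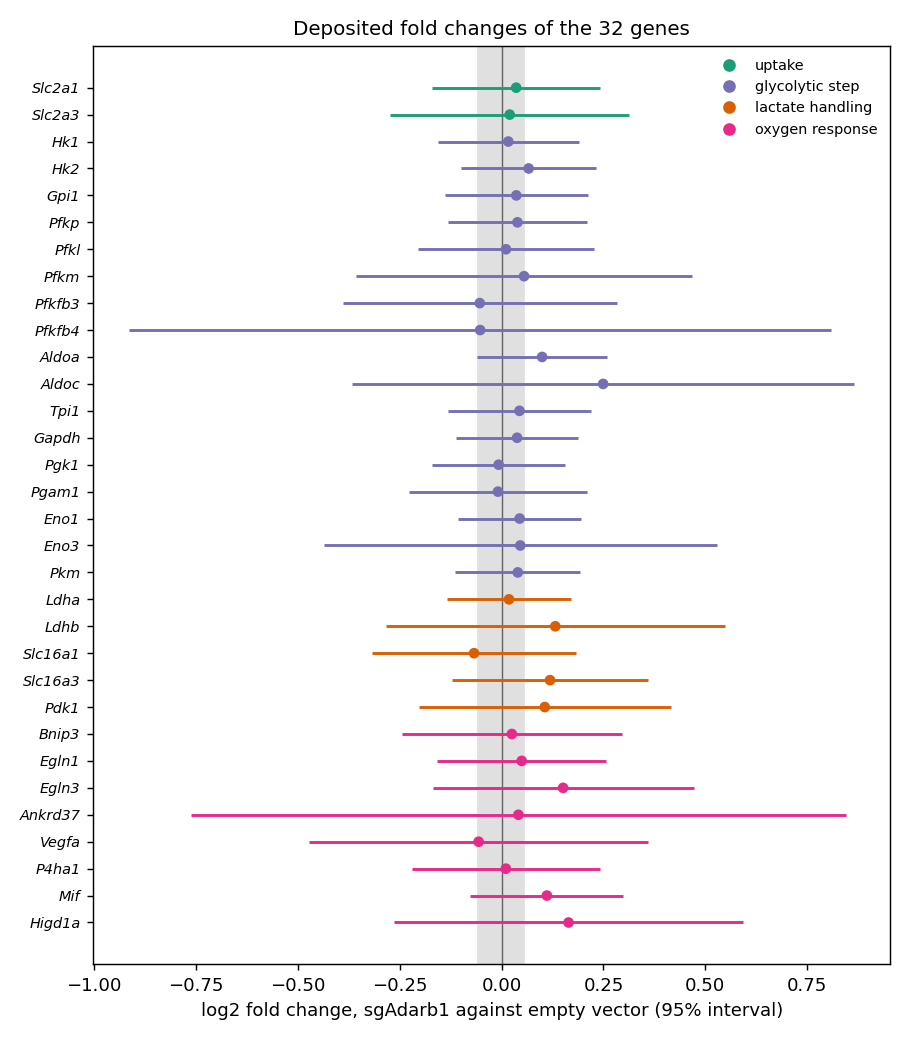
The plot of fold changes gives, for each of the 32 genes, the deposited log2 fold change (point) with its 95% interval (line), coloured by role, and the grey band runs from the lower to the upper quartile of the 3664 genes that had a mean normalized count of at least 1000. Every interval crosses 0, and the widest belong to Pfkfb4, Ankrd37 and Aldoc.

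The intervals were narrow for the highly expressed enzymes. Those of 16 genes lay within a 1.2-fold difference in either direction, those of 28 within 1.5-fold, and those of all 32 within 2-fold. The 16 were Slc2a1, Hk1, Hk2, Gpi1, Pfkp, Pfkl, Aldoa, Tpi1, Gapdh, Pgk1, Pgam1, Eno1, Pkm, Ldha, Egln1 and P4ha1, which together cover every step from glucose uptake to lactate. The 4 genes whose intervals reached beyond 1.5-fold were Pfkfb4, Aldoc, Ankrd37 and Higd1a. Values for each culture were not used, because the columns of single libraries carry names that match no sample label. The spread between cultures is therefore not shown, and the standard error (SE) of each fold change is the model's error of the group difference. DESeq2 sets this error partly from genes of like expression, since 2 cultures a group say little about 1 gene alone.

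HIF binds a short core that reads ACGTG or GCGTG, and this core was searched on both strands (as CACGT or CACGC on the other) in RefSeq promoter windows of 300 bases, from 250 bases before to 50 bases after each start (GRCm38.p6). ACGTG also forms part of CACGTG, the E-box bound by MYC and by the hypoxia-induced repressor BHLHE40, and GCGTG is the core bound by the aryl hydrocarbon receptor, so a match names no factor. Windows were matched by symbol for 31 of the 32 genes, without Slc2a3. The core stood in 37 of their 45 windows (82.2%), against 43.8% of all 32851 windows and 65.5% of the 3710 windows of protein-coding genes with a mean of at least 1000. Some genes had several windows, and windows of the same gene could overlap, so a core could count more than once. With a gene counted if any of its windows held the core, the shares were 93.5%, 46.7% and 71.9%. ACGTG alone stood in 55.6% of the genes' windows, in 19.6% of all windows and in 27.9% of those of the highly expressed genes. Their median GC content was 62%, close to the 62.7% of windows of the highly expressed genes and above the 52.7% of all windows. CACGTG stood in 11.1% of the genes' windows and in 10.6% of those of the highly expressed genes. The 250 bases before the start are shown for a transporter, an enzyme, the lactate dehydrogenase gene and an oxygen-response gene, so that the cores can be set beside the fold changes of genes that are textbook HIF targets. Capitals mark each core, or a whole CACGTG where the core forms part of it. These windows were chosen after the matches were seen. They lie at chr4:119108495-119108744 (plus strand, Slc2a1), chrX:106186850-106187099 (plus strand, Pgk1), chr7:46845554-46845803 (plus strand, Ldha) and chr7:138909507-138909756 (minus strand, Bnip3), each written 5′ to 3′.
Slc2a1: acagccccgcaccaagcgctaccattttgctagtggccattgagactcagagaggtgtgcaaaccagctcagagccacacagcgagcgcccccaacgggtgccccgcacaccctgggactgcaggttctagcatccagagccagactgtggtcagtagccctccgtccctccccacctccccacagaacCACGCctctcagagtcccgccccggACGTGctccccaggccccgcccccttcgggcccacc
Pgk1: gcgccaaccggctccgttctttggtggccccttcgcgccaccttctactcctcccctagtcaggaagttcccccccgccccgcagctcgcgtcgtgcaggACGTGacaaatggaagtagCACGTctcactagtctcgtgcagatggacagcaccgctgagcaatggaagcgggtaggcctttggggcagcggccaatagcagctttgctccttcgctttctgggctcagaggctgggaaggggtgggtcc
Ldha: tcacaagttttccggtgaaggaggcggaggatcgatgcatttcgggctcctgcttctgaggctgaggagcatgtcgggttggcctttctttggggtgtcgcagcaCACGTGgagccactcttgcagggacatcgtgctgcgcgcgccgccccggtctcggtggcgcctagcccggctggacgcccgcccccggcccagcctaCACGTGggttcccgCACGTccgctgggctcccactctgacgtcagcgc
Bnip3: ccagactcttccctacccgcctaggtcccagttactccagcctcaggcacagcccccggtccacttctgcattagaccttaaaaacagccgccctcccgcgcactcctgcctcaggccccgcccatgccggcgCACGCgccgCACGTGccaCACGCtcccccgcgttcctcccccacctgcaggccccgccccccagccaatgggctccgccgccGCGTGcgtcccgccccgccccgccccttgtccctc

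The stretch before Ldha held 3 cores, 2 of them as CACGTG at 145 and 48 bases before the start, and that before Bnip3 held 4, with CACGTG at 108 bases before the start. The stretch before Pgk1 held 2 cores of ACGTG, 1 on each strand, and that before Slc2a1 held 1 of ACGTG and 1 of GCGTG on opposite strands. The log2 fold changes of these genes were 0.02 ± 0.08 (SE) for Ldha, 0.03 ± 0.14 for Bnip3, -0.01 ± 0.08 for Pgk1 and 0.04 ± 0.11 for Slc2a1 by the authors' deposited table. Among the 31 genes, the 22 with ACGTG in at least 1 window had a median log2 fold change of 0.04 (17 positive), and the 9 without it a median of 0.04 (8 positive), from the authors' deposited table. Only 2 of the 31 genes held neither ACGTG nor GCGTG, so this split is by ACGTG alone, and the difference between its sides was not tested.

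Glucose enters T cells mainly through GLUT1, encoded by Slc2a1 (mm10 chromosome 4, 119108711 to 119137983), and also through GLUT3, encoded by Slc2a3. Slc2a1 had a mean of 3244 normalized counts and a log2 fold change of 0.04 ± 0.11 (SE), with an interval from -0.17 to 0.24, by the authors' deposited table. Slc2a3 had a mean of 1056 and a log2 fold change of 0.02 ± 0.15 by the authors' deposited table. To compare levels between genes, the deposited mean over all 4 libraries was divided by the length of the union of a gene's exons in kilobases. On this scale Slc2a1 stood at 925 and Slc2a3 at 146 normalized counts per kb, so that Slc2a1 made up 86.4% of the summed level of both.

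Hexokinases trap glucose in the cell by phosphorylating it. Hk2, the inducible form, was at 0.07 ± 0.08 and Hk1, the widely expressed form, at 0.02 ± 0.09 on the log2 fold change scale by the authors' deposited table. Per kb of exon union, Hk2 held 64.9% of the summed hexokinase level, but 50.1% when the longest transcript of each gene gave the length. No order between the hexokinases can be read from these levels. Gpi1, which makes fructose phosphate from glucose phosphate, was at 0.04 ± 0.09 by the authors' deposited table.

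Phosphofructokinase catalyses the committed step. Its platelet-type gene Pfkp was at 0.04 ± 0.09, the liver-type gene Pfkl at 0.01 ± 0.11 and the muscle-type gene Pfkm at 0.06 ± 0.21 (log2 fold change ± SE) by the authors' deposited table. Pfkp held 52.1%, Pfkl 36.0% and Pfkm 11.9% of their summed level per kb of exon union. Pfkfb3 and Pfkfb4 encode bifunctional enzymes that make and remove the allosteric activator of phosphofructokinase. Both had negative values, -0.05 ± 0.17 for Pfkfb3 and -0.05 ± 0.44 for Pfkfb4, by the authors' deposited table. Pfkfb4 had the lowest level of all 32 genes, with a mean of 96.0 normalized counts, and its interval ran from 0.53-fold to 1.75-fold, calculated from the authors' deposited table.

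Aldolase cleaves the phosphorylated fructose into a pair of triose phosphates. Aldoa (chromosome 7, 126795234 to 126800751) reached a mean of 20293 normalized counts and a log2 fold change of 0.10 ± 0.08, with an interval from -0.06 to 0.26, by the authors' deposited table. Its unadjusted p of 0.223 was the smallest of the 32 genes, and its adjusted p was 1.00 by the authors' deposited table (DESeq2). With the dependence on GC and length removed, its value was 0.05. The second gene model of this name, which ends 39 bases before the first begins on the same strand (126800790 to 126809108), had a mean of 2.55 and a log2 fold change of 0.68 ± 2.54 by the authors' deposited table. Aldoc, a form best known from brain, had the largest value of all, 0.25 ± 0.31, from a mean of only 200.1 by the authors' deposited table. Its share of the summed aldolase level was 0.872%, while Aldoa held 99.1%.

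Tpi1, which interconverts the triose phosphates, was at 0.04 ± 0.09 by the authors' deposited table. The payoff phase follows, which yields ATP and NADH. Gapdh, whose enzyme opens that phase and reduces NAD+ as it adds phosphate, was at 0.04 ± 0.08 by the authors' deposited table. Pgk1 and Pgam1, the kinase and the mutase that follow, were at -0.01 ± 0.08 and -0.01 ± 0.11 by the authors' deposited table. Eno1, which encodes the main enolase, was at 0.04 ± 0.08, and the muscle enolase gene Eno3 at 0.05 ± 0.25 by the authors' deposited table. Eno1 held 96.6% of their summed level. Pkm (chromosome 9, 59656368 to 59679375), which encodes the pyruvate kinase that ends the pathway, had the highest mean of the 32 genes at 40740 normalized counts, and its log2 fold change was 0.04 ± 0.08 by the authors' deposited table. The alternative splicing that gives its M1 and M2 forms was not measured by counts per gene.

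A few of these genes took most of the counts of the group: Pkm, Gapdh, Eno1, Ldha and Aldoa together made up 65.2% of the summed means of the 32. The 32 genes in turn made up 1.30% of all summed means by the authors' deposited table, and 1.43% without the predicted gene Gm26917, which alone took 9.55%. Ranked per kb of exon union among 16633 protein-coding genes, Pkm was at rank 55, Ldha 56, Gapdh 59, Aldoa 65, Mif 73 and Eno1 87, and 6 of the 32 genes were thus among the top 100. Their order depended on the length used. Per kb of the longest transcript, Eno1 stood at 14724, beside 14727 for Ldha, 13101 for Aldoa and 9796 for Gapdh. Pfkfb4 was at rank 9603.

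**Figure D2:**
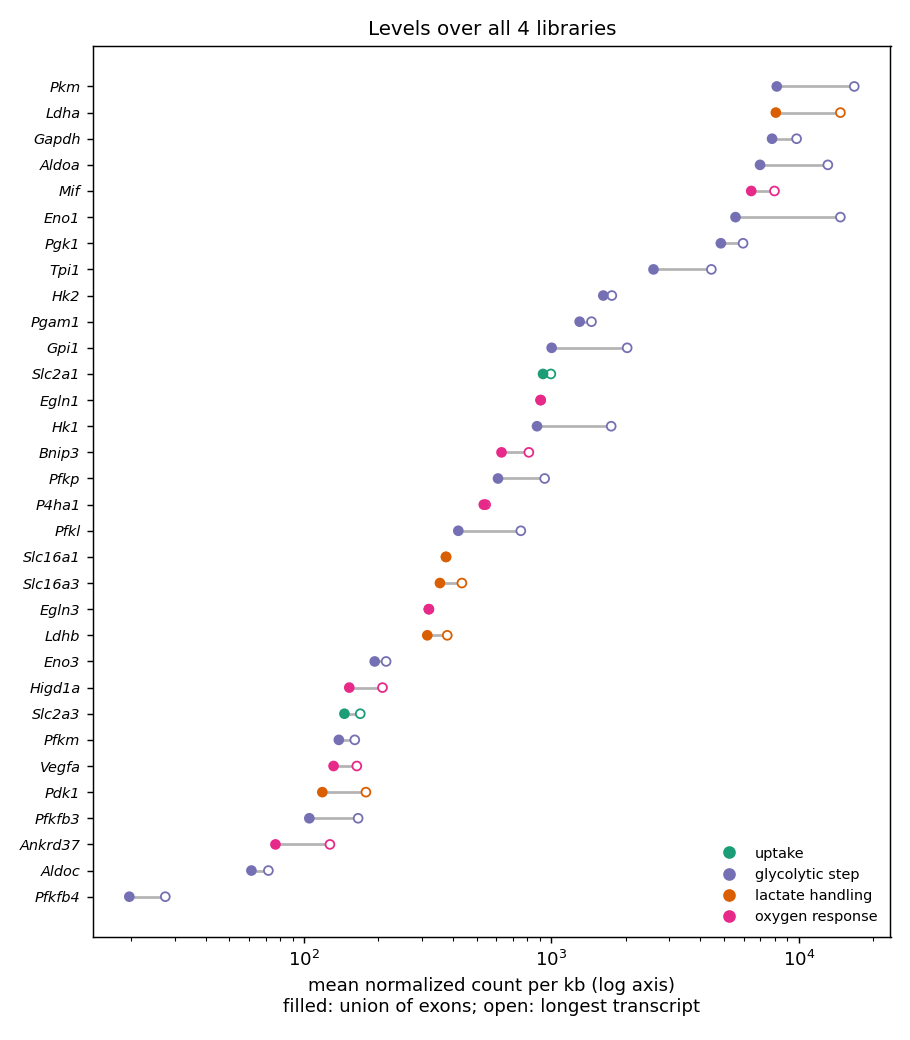
The plot of levels gives the mean normalized count per kb over all 4 libraries on a log axis, with length taken from the union of exons (filled) or from the longest transcript (open), coloured by role. Pkm, Ldha and Gapdh lead by exon union at 8146, 8075 and 7795 per kb, and Pfkfb4 is lowest at 19.7.

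Lactate is made by LDH, whose A subunit (Ldha) is the HIF-responsive one and whose B subunit (Ldhb) predominates in oxidative tissues. Ldha (chromosome 7, 46841475 to 46855627), whose promoter stretch with 3 cores is printed above, had a mean of 26729 normalized counts and a log2 fold change of 0.02 ± 0.08, with an interval from -0.13 to 0.17, by the authors' deposited table. Ldhb was at 0.13 ± 0.21 from a mean of 495 by the authors' deposited table. Per kb of exon union Ldha held 96.2% of their summed level, a 25.6-fold higher level than Ldhb. The lactate carriers had values on either side of 0. Slc16a3, which encodes the exporter MCT4, was at 0.12 ± 0.12, and Slc16a1, which encodes MCT1, at -0.07 ± 0.13, the most negative of the 32, by the authors' deposited table. Both intervals spanned 0, and the difference between the carriers was not tested. Their levels were alike per kb of exon union, at 354 for Slc16a3 and 375 for Slc16a1, and their order turned when the longest transcript gave the length. Pdk1, a kinase that holds back pyruvate from mitochondrial oxidation, was at 0.11 ± 0.16 by the authors' deposited table.

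Of the 8 oxygen-response genes, 7 had positive values and 1 a negative one, with a median of 0.05 from the authors' deposited table. Egln1, which encodes PHD2, the main hydroxylase of HIF, was at 0.05 ± 0.11, and Egln3, which encodes the HIF-induced PHD3, at 0.15 ± 0.16 by the authors' deposited table. Egln1 held 73.9% of their summed level. Bnip3, a mitochondrial protein that promotes mitophagy, was at 0.03 ± 0.14 by the authors' deposited table. Ankrd37, a small ankyrin-repeat gene with a strong HIF response, was at 0.04 ± 0.41 from a mean of 118 by the authors' deposited table. Vegfa, the endothelial growth factor, was the negative one at -0.06 ± 0.21, and P4ha1, a collagen prolyl hydroxylase subunit, was at 0.01 ± 0.12 by the authors' deposited table. Higd1a, a mitochondrial inner membrane protein, was at 0.16 ± 0.22 by the authors' deposited table.

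Mif (chromosome 10, 75859353 to 75860240) encodes a secreted cytokine that is itself HIF-responsive. It had a mean of 4784 normalized counts and a log2 fold change of 0.11 ± 0.10, with an interval from -0.08 to 0.30, by the authors' deposited table. It was the shortest of the 32 genes, with 745 bases of exon and a GC content of 63.5% in its longest transcript. With the dependence on GC content and exon length removed, its value was 0.00.

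Precision followed expression. The SE fell from 0.44 for Pfkfb4 to 0.08 for Gapdh, Eno1, Ldha, Pkm, Aldoa, Pgk1 and Hk2 by the authors' deposited table. Set against the median SE of up to 201 genes nearest in mean, the SE of the 32 genes lay between 0.951 times (Gapdh) and 1.08 times (Vegfa). Because DESeq2 sets this error partly from genes of like expression, such closeness is partly built in and says little about the 32 genes themselves. For a gene to pass an adjusted p of 0.05 alone among 29383, with no other gene passing, its measured log2 fold change had to exceed 4.79 times its SE. That is 1.29-fold for Gapdh, 1.42-fold for Slc2a1, 1.72-fold for Egln3 and 4.30-fold for Pfkfb4. These sizes refer to measured values, and the bar would be lower if other genes passed with it.

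**Figure D3:**
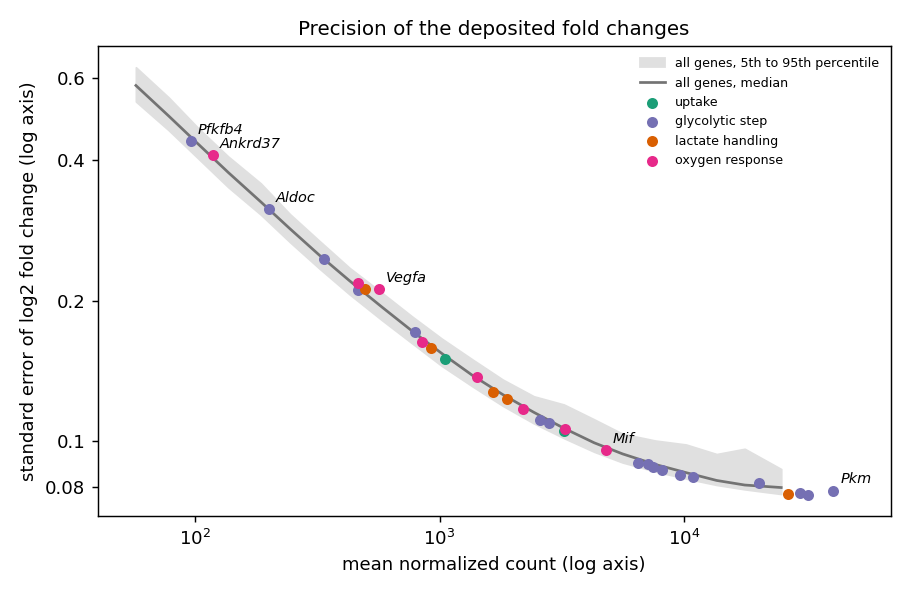
The plot of precision sets the SE of the log2 fold change against the mean normalized count, both on log axes, for the 32 genes (points, by role), with the median (line) and the 5th to 95th percentile (band) of all genes with a mean of at least 50. The points follow the line of all genes, from 0.44 at Pfkfb4 to 0.08 at Pkm.

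The counting could mix some of these genes with others. The exons of 12 of the 32 genes overlapped those of another gene, and the sources used here do not give whether counting used the strand. For Pfkm, 18 bases overlapped Senp1 on the opposite strand, which had a mean of 2444 against 462 for Pfkm, and for Ankrd37, 57 bases overlapped Ufsp2, which had a mean of 649 against 118, by the authors' deposited table. Longer overlaps were with genes of lower mean, such as 22.7% of the exon bases of Ankrd37 with Lrp2bp (mean 23.0). On the same strand, 15.3% of the exon bases of Pkm overlapped a gene model with a mean of 367, against 40740 for Pkm. For Pfkm, 10.2% overlapped a same-strand model with a mean of 12.1. Without these 12 genes the median log2 fold change of the other 20 was 0.03. For 7 genes (Bnip3, Eno1, Ldha, Ldhb, Mif, Pgk1 and Pkm), other annotated genes were at least 95% identical over at least 50% of the longest transcript. The summed means of such copies came to at most 0.544% of the mean of the gene they copy.

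Other genes of these pathways did not pass the test, and neither did any other gene in the table. Of 123 further genes in 7 lists, 121 had a fold change. Past the threshold were 0 of these 121, where 0% of the 29383 genes with a fold change passed, by the authors' deposited table (DESeq2). Their smallest unadjusted p was 0.111 (DESeq2), and 0.208% of the 29383 genes had one below 0.05. Of the 121, 70 were positive and 51 negative. A mean of at least 10 was reached by 105 of them, with a median log2 fold change of 0.02 from the authors' deposited table. Among other glycolytic enzymes and isozymes, 10 of 23 were positive, and Pgam5, Eno2 (the neuronal enolase) and Pgm1 (a phosphoglucomutase) were at 0.10 ± 0.29, -0.26 ± 0.60 and -0.01 ± 0.14 by the authors' deposited table. Bsg, which encodes basigin, the chaperone of the lactate carriers, was at 0.12 ± 0.09, and the carrier relative Slc16a6 at -0.04 ± 0.15, by the authors' deposited table, while 6 of 12 further carriers were positive. After removal of the dependence on GC and length, Bsg was at 0.05.

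Genes that feed pyruvate into mitochondria were positive in 9 of 14, with the pyruvate carrier gene Mpc1 at 0.07 ± 0.19, the dehydrogenase subunit Pdha1 at 0.02 ± 0.11 and the complex component Pdhx at -0.08 ± 0.25 by the authors' deposited table. Of the pentose phosphate genes, 5 of 8 were positive, and transketolase (Tkt), transaldolase (Taldo1) and Rpe were at 0.05 ± 0.09, 0.02 ± 0.12 and -0.11 ± 0.15 by the authors' deposited table. Upstream regulators were positive in 12 of 19, with the kinase gene Pik3cd at 0.08 ± 0.09, the GTPase gene Rheb at -0.13 ± 0.22 and the transcription factor gene Irf4 at 0.01 ± 0.08 by the authors' deposited table.

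The oxygen-sensing genes centre on HIF and the enzymes that control it. Hif1a (chromosome 12, 73901375 to 73947530) was highly expressed, with a mean of 21436 normalized counts, and its log2 fold change was 0.05 ± 0.08 by the authors' deposited table. Epas1, which encodes the related HIF-2 alpha subunit, was at -0.30 ± 0.56 by the authors' deposited table, a wide SE for its mean of 1854. Cited2, a HIF-induced antagonist of HIF coactivators, had the smallest unadjusted p of the further genes (0.111) at 0.21 ± 0.13 by the authors' deposited table (DESeq2). In all, 9 of 14 sensing genes were positive, with a median of 0.05 from the authors' deposited table. Of 31 other HIF-response genes with a fold change, 19 were positive, with a median of 0.03, and Ndrg1 was at 0.13 ± 0.11, Bhlhe40 at 0.08 ± 0.08 and Stc2 at -0.26 ± 0.35 by the authors' deposited table.

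**Figure D4:**
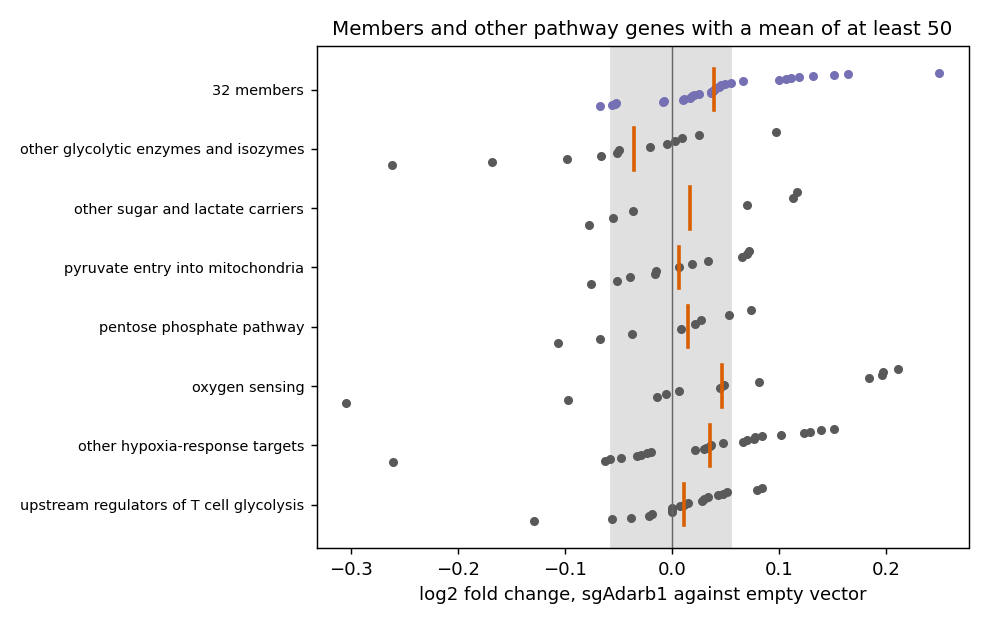
The plot of lists gives the log2 fold changes of the 32 genes and of the further pathway genes with a mean of at least 50 (points), with each list's median (orange bar) and the interquartile range of the 3664 genes that had a mean of at least 1000 (grey band). Every median lies between -0.04 and 0.05.

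The targeted gene and the makeup of the cultures are given for reference. Adarb1 mRNA was at 0.11 ± 0.12 by the authors' deposited table, and since a Cas9 cut can leave mRNA in place this checks neither the labels nor the sign. All 8 CD4 T cell markers were expressed, with means from 2463 (Cd3d) to 15286 (Cd4) normalized counts, and Il17a, the cytokine that defines Th17 cells, had a mean of 1756 by the authors' deposited table. By the authors' deposited table (DESeq2), Il17a was at 0.70 ± 0.15 (SE; p = 2.9e-06, the smallest in the table; adjusted p = 0.071) and Il17f, a related cytokine, at 1.11 ± 0.53 (p = 0.038; adjusted p = 1.00). These were the 2 of 12 Th17 markers with an unadjusted p below 0.05, and 11 of the 12 were positive, with a median of 0.09, by the authors' deposited table. All 8 CD4 T cell markers were positive too (median 0.06; 0 of 8 with an unadjusted p below 0.05), the direction of 26 of the 32 genes, by the authors' deposited table. Of all genes, 53.3% were positive at a mean from 50 to below 1000, 48.0% from 1000 to below 5000 and 56.2% at 5000 or above. An unadjusted p below 0.05 was held by only 0.208% of the 29383 genes with a fold change, by the authors' deposited table (DESeq2). A count of 0 in a short list of markers therefore does not show that a cell type was unchanged. Among markers of cells that the cultures could also hold, 0 of 8 B cell, 0 of 8 CD8 T and NK cell, 0 of 12 myeloid and dendritic, 2 of 10 mast cell and basophil and 0 of 6 erythroid genes with a fold change had an unadjusted p below 0.05 by the authors' deposited table (DESeq2), and the erythroid genes Hba-a2 and Hbb-bs were at 0. In the same order, 3, 2, 10, 2 and 2 of them were positive, with medians of -0.09, -0.17, 0.89, -1.86 and -0.59. Means below 10 were held by 6 of the 12 myeloid and 6 of the 10 mast cell genes. The mast cell gene Cpa3 was at -5.66 ± 1.26 from a mean of 28.7 (p = 7.2e-06; adjusted p = 0.071, that of Il17a) by the authors' deposited table (DESeq2). The summed means of these lists were 2528, 3307, 165, 148 and 27.8 normalized counts, against 229756 for the 32 genes. The part of any of these markers in the values above was not tested, and in bulk RNA fewer cells of a type and less RNA per cell cannot be told apart.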

How the data were processed

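Ribosome-depleted RNA of 4 Th17 cultures was sequenced after 8 PCR cycles of library amplification, per the labels' protocols. The tools were STAR 2.6.1a, featureCounts and DESeq2 1.18.1 on mm10, per the submitters' processing notes. Not given in the sources used here are the model formula, any donor term, the strand setting and the annotation. Per the file headers, the authors deposited for each gene a mean signal (counts over size factors, averaged over libraries, here the mean normalized count), a log2 fold change with its SE, a Wald score, and a p-value with its adjusted p-value. The deposited score equalled the fold change over its SE, and the adjusted p matched Benjamini-Hochberg values over the 29383 genes that have a fold change. The 4 columns of single libraries match no sample label and were not used, so depth per library is not reported and no count test was refitted. The planned design for a table of the authors' comparison alone was used.

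Identifiers were matched to GENCODE M21 (mm10), all 55450 of them. Computed here, in Python 3.11.15 with pandas 2.3.3, scipy 1.17.1 and statsmodels 0.14.6, were normal 95% intervals, levels per kb, isozyme shares, near-identical copies (BLAST 2.17.0) and a spline trend (5 degrees of freedom for each term, weighted by the inverse squared SE) of fold change on transcript GC content and exon length for genes whose mean reached 10. Adjustment and trend were tested on simulated data. Every member is named. From each further list the positive and the negative gene of smallest unadjusted p with a mean of at least 50 and the gene of highest level are named. Members and lists were chosen with earlier results of these data known. Other settings tried were the genes adjusted over, the threshold, the filter on means, centring, the trend, the length and the motif.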

Additional observations from a re-analysis of the deposited data

How the results depend on the processing

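Members past the threshold were 0 under each setting run: adjustment limited to genes whose mean reached 10 or 50, an adjusted p below 0.1, and an unadjusted p below 0.05. Over the 29383 genes with a fold change, 0% passed an adjusted p of 0.05 and 0.208% an unadjusted p of 0.05. Il17a and Cpa3 were past an adjusted p of 0.1, each at 0.071 (DESeq2). With calls this rare, counts of 0 do not show that the 32 genes were unchanged. The median log2 fold change of the 32 genes ranged from 0.01 with the GC and length trend removed to 0.04 under centring, against 0.04, and 22 to 26 genes were positive, against 26. The trend turned the sign of Hk1, Pfkl, Eno3 and Pkm, and centring turned none. Settings that left out genes with overlapping exons or near-identical copies were chosen after the data were seen. With the longest transcript as length, shares within families became 50.1% for Hk2, 50.7% for Pfkp, 99.5% for Aldoa, 98.6% for Eno1, 97.5% for Ldha and 46.3% for Slc16a1. The ACGTG core alone stood in 55.6% of the promoter windows, by construction fewer than either core. No paired analysis was possible because single-library columns could not be tied to donors. For the same reason the edgeR and DESeq2 refits, other size factors, a fit without a filter on counts and the omission of a culture were not run. The deposited SE limits what was detectable.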
